A study of Mus musculus with 10 samples.

Results

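Nuclear receptors are transcription factors with a zinc-finger DNA-binding domain and a pocket that, in many of them, holds a small lipid-like ligand. Their levels were examined in RNA sequencing of mouse colon crypts. The set comprised 35 receptors chosen by name: the epithelial fate receptors HNF4, the lipid, bile acid and xenobiotic sensors, the receptors for vitamin D, thyroid hormone, glucocorticoid and estrogen, the estrogen-related and orphan receptors, and the shared RXR partners. Of these, 34 matched one of the 33632 gene identifiers in the count table, 27 passed the filter on low counts and were tested among 14963 genes, and 7 had too few counts. Rxrg matched no identifier and was not analysed here.

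All 10 samples came from colon crypts of mice with Sox21fl/fl alleles, a normal diet and a normal liver. The 5 flox samples had the genotype Sox21fl/fl with no Cre named, and the 5 CKO samples were Lgr5-EGFP-IRES-CreERT2/+;Sox21fl/fl. In the CKO mice a Cre recombinase inducible by tamoxifen, with a green fluorescent protein, is expressed from one allele of Lgr5, a gene of crypt base stem cells, so the recombined cells are the stem cells and what descends from them, and the knock-in allele itself is present in the CKO group only. The labels do not give the animals' ages, the time after tamoxifen, or whether the flox mice also received it. They also do not say whether samples came from separate animals, and each p-value reflects only how much these samples varied.

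Most receptors of this superfamily bind DNA as dimers at pairs of a short motif, AGGTCA, and many do so with an RXR as the second subunit. In gut epithelium HNF4A and its paralog HNF4G maintain enterocyte identity, VDR and the PPARs switch on calcium transport and fatty acid oxidation genes, FXR (encoded by Nr1h4) responds to bile acids, the LXRs (Nr1h2, Nr1h3) to oxysterols, and PXR and CAR (Nr1i2, Nr1i3) to foreign compounds. Estrogen-related receptors act with the coactivators PGC-1α and PGC-1β on mitochondrial genes.

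The libraries held between 18926634 and 23642415 counts assigned to genes. Mitochondrial transcripts took 26.5% of the counts of flox 1 and 29.3% of those of flox 4, against 4.30% to 11.8% in the other 8 libraries. Flox 1 and flox 4 also had the lowest scaling factors by the trimmed mean of M-values (TMM), 0.585 and 0.605. For named genes, log2 fold changes are therefore also given without them where the sign turned or the value moved by more than 1.5 times. The epithelial marker list stood at a summed 16594 to 36049 CPM (normalized counts, scaled to the TMM-adjusted library size) in every library, so crypt epithelium, as labelled, was detected. The targeted gene was not lower in the knockout: Sox21 was at 4.04 ± 1.80 CPM in flox and 5.34 ± 1.94 in CKO (SD, n = 5 each; log2 fold change 0.38, SE 0.34, edgeR adjusted p = 0.577). Without flox 1 and flox 4 the log2 fold change of Sox21 was 0.049. The counts are per gene and do not show whether the floxed part of Sox21 was absent, so the labels were not checked by this gene.

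The levels of different receptors were compared on the deposited FPKM scale, which by definition divides the fragment count by transcript length and by the library total. The deposited values were not the gene counts over a fixed length and the total. Hnf4a had 16409 counts and 210 FPKM in flox 5, and 16450 counts and 270 FPKM in CKO 5. The totals of these libraries were 21414122 and 22177645. The cause of this was not tested. Hnf4a, the master regulator of enterocyte differentiation, was the most abundant receptor transcript in 10 of 10 libraries. Its FPKM was 163 ± 60.7 in flox and 261 ± 37.7 in CKO (SD, n = 5 each), which placed it between the 93.6 and 97.2 percentiles of tested genes. For most receptors flox 1 and flox 4, the libraries with the most mitochondrial counts, had the lowest flox FPKM. The part of the mitochondrial counts in these values was not tested, and the 2 group means are not a test of a difference.

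Esrra came next, a ligand-independent receptor of oxidative metabolism, at 89.9 ± 33.4 FPKM in flox and 134 ± 18.2 in CKO. Ppard, the PPAR that acts on fatty acid oxidation in many tissues, was at 77.7 ± 33.2 and 85.0 ± 21.4 FPKM. Vdr, the vitamin D receptor, was at 76.3 ± 25.2 and 97.9 ± 16.8 FPKM. Nr1h2, which encodes the widely expressed LXRβ, followed at 66.4 ± 21.7 and 73.6 ± 10.9 FPKM. The orphan receptor Nr2f6 and the bile acid receptor Nr1h4 lay just below these, at 59.6 ± 16.3 and 38.8 ± 11.1 FPKM in flox.

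The next tier held Pparg (38.7 ± 14.7 FPKM in flox), the RXR partners Rxrb (29.7 ± 9.13) and Rxra (25.5 ± 4.38), the PXR gene Nr1i2 (26.5 ± 6.85), Thra (17.9 ± 7.27), Nr1h3 (12.3 ± 1.57), Nr5a2 (8.21 ± 2.49) and the glucocorticoid receptor Nr3c1 (6.68 ± 3.41). Hnf4g stood at 3.48 ± 2.18 FPKM in flox and 5.54 ± 2.08 in CKO, far below its paralog. At the low end of the tested receptors were Thrb (2.18 ± 1.04 FPKM in flox), Nr1i3 (0.71 ± 0.221), Esrrg (0.430 ± 0.119) and the estrogen receptor Esr1 (0.330 ± 0.157).

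The 7 receptors with too few counts were Esr2, Nr4a3, Rora, Rarb, Nr2f1, Nr0b2 and Esrrb. Nr0b2, the small repressor SHP and a classical FXR target, had 1 count summed over the flox libraries and 2 over the CKO libraries. Esrrb had 5 and 4, Rarb 3 and 3, and Nr2f1 7 and 6 summed counts. Esr2 had 34 summed counts in flox and 93 in CKO, with most of the latter in CKO 3 (36 counts) and CKO 5 (37 counts), while the other 8 libraries held 2 to 10 counts each.

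Few neighbours in the order were separated. Of 33 neighbouring pairs in the order of mean flox FPKM, 4 kept their order in all 10 libraries: Hnf4a over Esrra, Vdr over Nr1h2, Nr1h3 over Nr5a2, and Nr3c1 over Nr4a1. Esrra exceeded Ppard in 9 libraries, but Ppard exceeded Vdr in only 4 and Nr1h4 exceeded Pparg in only 4, so these neighbours were not separated beyond their spread.

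**Figure D1:**
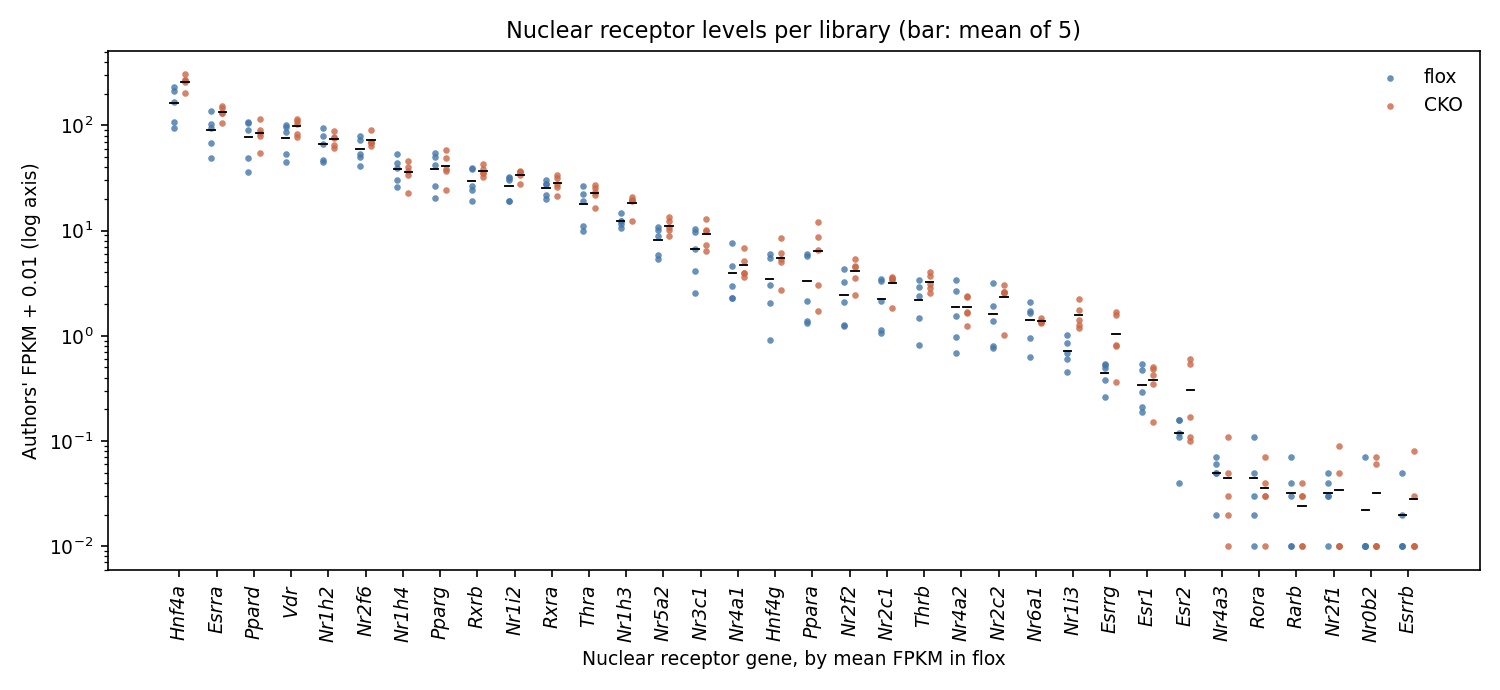
The authors' FPKM plus 0.01 of each receptor in each library (log axis), ordered by mean flox level, with flox and CKO libraries as separately coloured points and group means as short lines. Hnf4a is highest in all 10 libraries, and the points of neighbouring receptors overlap through most of the order.

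Because the sum over receptors is taken within a library, shares of it do not depend on the library's total. Hnf4a made up 19.4% to 23.0% of the summed receptor FPKM in the flox libraries and 25.0% to 28.8% in the CKO libraries, and these ranges did not overlap. Of the 6 most abundant receptors, whose shares were computed, it was the only one with separate ranges, and it was not tested because the receptors were chosen with results known. On the CPM scale, which does not divide by length, the Hnf4a share was 27.0% to 30.5% in flox and 30.1% to 33.4% in CKO, and the ranges overlapped. The separation was thus seen on the FPKM scale and not on the CPM scale. The scales differed by more than a fixed length. At nearly equal counts and totals, Hnf4a had 210 FPKM in flox 5 and 270 FPKM in CKO 5. The separate FPKM ranges are therefore not read as a change in Hnf4a abundance, and what makes the scales differ was not tested. The shares of Esrra (9.71% to 13.7% of summed FPKM in flox, 13.1% to 14.1% in CKO) and of Vdr (9.20% to 10.6% and 8.88% to 10.3%) overlapped between the groups.

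Short promoter stretches of 3 receptors are shown because these genes either carried one of the smallest p-values below or encode the RXR partner, and because they hold the motif the family itself recognises. They are from RefSeq on GRCm38.p6, written 5′ to 3′ on the gene's strand, with AGGTCA or its reverse complement TGACCT in capitals.
Nr1h4, chr10:89506807-89506908, minus strand: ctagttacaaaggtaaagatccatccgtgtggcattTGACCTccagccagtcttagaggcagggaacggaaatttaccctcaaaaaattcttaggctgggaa
Thrb, chr14:17660716-17660841, plus strand: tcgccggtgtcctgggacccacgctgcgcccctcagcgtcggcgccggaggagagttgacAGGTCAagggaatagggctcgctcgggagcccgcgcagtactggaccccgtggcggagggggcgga
Rxra, chr2:27709145-27709270, plus strand: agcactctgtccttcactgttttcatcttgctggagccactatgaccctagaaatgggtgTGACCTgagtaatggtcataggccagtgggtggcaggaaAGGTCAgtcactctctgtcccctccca
The motif ended 209 bases before the annotated start of Nr1h4 and 179 bases before that of Thrb, and Rxra held 2 copies in 1 window, on opposite strands. Searched on both strands in the 250 bases before each start, the motif was present in 8 of 48 receptor windows (16.7%) and in 4607 of all 32851 windows (14.0%). The 7 receptors with it were Nr5a2, Rxrg, Rxra, Nr6a1, Pparg, Nr1h4 and Thrb, of 32 with a window. A match to these letters is a description and shows no binding.

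The study's question was whether the Sox21 knockout changed crypt expression. No receptor passed the threshold. With edgeR's quasi-likelihood test and Benjamini-Hochberg adjustment over all genes, 0 of 27 receptors and 0 of 14963 genes (0%) had an adjusted p under 0.05, and the smallest adjusted p of a receptor was 0.372. At an unadjusted p under 0.05 there were 3 of 27 receptors (11.1%), Nr1i3 and Thrb higher and Nr1h4 lower in CKO, against 13% of all genes tested (1939). By direction, 5.05% of all genes were higher and 7.91% lower at that level. DESeq2 called 165 of 17239 genes (0.957%) and 0 of the 29 receptors it tested, and 4 receptors had an unadjusted p under 0.05 by it, Nr1h4, Nr1i3, Thrb and Esrrg, against 14.8% of the genes it tested.

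The CPM values of the groups overlapped for all 27 receptors, whereas 2.18% of all tested genes had groups that did not overlap. The receptors' fitted log2 fold changes ran from -0.51 to 0.74, 13 above 0 and 14 below, with a median of -0.0022 against 0.0010 for all tested genes. These directions hold for TMM scaling: with library totals only, 26 of the 27 receptors were above 0, but the median of all genes then was 0.36 and that of the receptors 0.40. The median size of the change was 0.22 for the receptors and 0.24 for all genes. For 22 of the 27 receptors the 95% interval lay within 2-fold either way (67.6% of all tested genes), and for 11 it lay within 1.5-fold (34.6% of all genes), so larger differences than these lay outside the interval for those receptors.

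**Figure D2:**
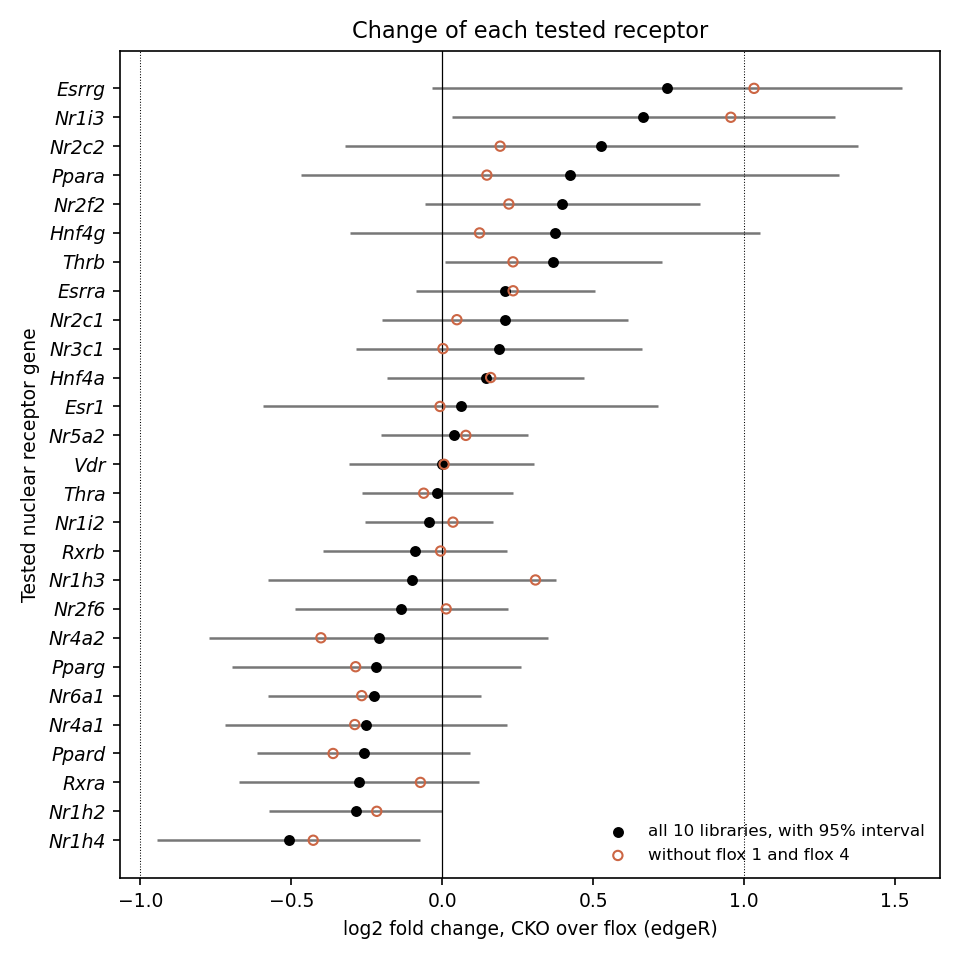
Log2 fold change of each tested receptor, CKO over flox, with its 95% interval from edgeR, and open points for the estimate without flox 1 and flox 4. The estimates lie on both sides of 0 between -0.51 and 0.74, and none passes the adjusted threshold.

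Without flox 1 and flox 4, edgeR again called 0 genes, and 6.41% of the 15628 genes tested had an unadjusted p under 0.05. The 3 receptors among them were Nr1i3, Esrrg and Ppard. The sign was the same as with all libraries for 22 of the 27 receptors.

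Among the fate receptors, Hnf4a (ENSMUSG00000017950) was at 618, 592, 612, 678 and 709.8 CPM in flox 1 to 5 and at 771, 828, 622, 744 and 582 in CKO 1 to 5. The CKO libraries held both the highest value and the lowest, and the groups overlapped. Its log2 fold change was 0.14 (SE 0.15, 95% interval -0.18 to 0.47, edgeR adjusted p = 0.633). Hnf4g averaged 12.3 ± 4.91 CPM in flox and 16.1 ± 5.72 in CKO, a log2 fold change of 0.37 with an interval of -0.31 to 1.05, and 0.12 without flox 1 and flox 4. Nr5a2, which encodes LRH-1, a receptor of crypt renewal and local steroid synthesis, was at 39.4 ± 1.65 and 40.5 ± 5.13 CPM, with one of the narrower intervals (-0.20 to 0.28). Fitted log2 fold changes of Nr5a2 were 0.040 with all libraries and 0.078 without flox 1 and flox 4.

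Vdr (ENSMUSG00000022479) was at 315, 328, 329.5, 357 and 346 CPM in flox 1 to 5 and at 384, 389, 325, 319.7 and 255 in CKO 1 to 5. Both the 2 highest values and the lowest came from CKO libraries. The group means were 335 ± 16.5 and 335 ± 55.1 CPM, and the 95% interval of the ratio was 0.807 to 1.23.

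The bile acid receptor Nr1h4 (ENSMUSG00000047638) had the smallest p of the set. It was at 75.0, 54.6, 71.3, 84.0 and 84.3 CPM in flox 1 to 5 and at 66.6, 51.9, 52.8, 58.2 and 30.0 in CKO 1 to 5. Every CKO library but CKO 1 and CKO 4 lay below all flox libraries, and the overlap came from the low value of flox 2. This gave a log2 fold change of -0.51 (SE 0.20, 95% interval of the ratio 0.520 to 0.950, edgeR unadjusted p = 0.0254, adjusted p = 0.372). CKO 5 was the lowest library: without it the log2 fold change was -0.36 (edgeR unadjusted p = 0.0360), and without flox 1 and flox 4 it was -0.43 (edgeR unadjusted p = 0.0857).

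CKO 5 also had the lowest summed level of the colonocyte markers, 4796 CPM, against 8413 to 12921 in flox and up to 13122 in the other CKO libraries. It was lowest for the summed epithelial markers too, at 16594 CPM. Between the groups, 7 of the 10 colonocyte markers were higher in CKO by fitted value and 3 lower, with a median log2 fold change of 0.22. At an unadjusted p under 0.05 by edgeR, 2 were higher (5.05% of all genes) and 0 lower (7.91%). In bulk tissue, fewer cells of a type and less RNA per cell cannot be told apart, and the part of these markers in the Nr1h4 value was not tested.

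The LXR genes encode a widespread and a more restricted oxysterol receptor. Nr1h2 (ENSMUSG00000060601) was at 118, 111, 118, 121 and 93.7 CPM in flox 1 to 5 and at 97.5, 111, 81.4, 96.4 and 74.3 in CKO 1 to 5. CKO 3 and CKO 5 were the lowest libraries, and CKO 1, CKO 2 and CKO 4 lay above flox 5. Fitted over all libraries, its log2 fold change was -0.29 (SE 0.13, edgeR unadjusted p = 0.0506, adjusted p = 0.386). Nr1h3, which encodes LXRα, was highest in flox 4 and flox 1 (29.9 and 29.5 CPM), and its log2 fold change turned from -0.10 to 0.31 (95% interval -0.03 to 0.65) without those libraries.

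The xenobiotic sensors differed in level and in spread. Nr1i2 (PXR) was at 67.6 ± 5.47 CPM in flox and 65.6 ± 2.56 in CKO, with an interval of -0.25 to 0.17 on the log2 scale. Nr1i3 (CAR, ENSMUSG00000005677) was much rarer, with 16 to 28 counts in the flox libraries and 28 to 64 in the CKO libraries. It was at 1.27, 0.817, 0.758, 1.66 and 1.21 CPM in flox 1 to 5 and at 1.22, 1.81, 1.73, 1.92 and 2.26 in CKO 1 to 5. All CKO libraries but CKO 1 lay above every flox library.

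The Nr1i3 log2 fold change was 0.67 (SE 0.29, ratio interval 1.02 to 2.46, edgeR unadjusted p = 0.041, adjusted p = 0.380). It was 0.96 without flox 1 and flox 4 (edgeR unadjusted p = 0.0112, adjusted p = 0.705), where the groups no longer overlapped, and 0.57 without CKO 5 (edgeR unadjusted p = 0.0952). In the GENCODE M21 annotation the exons of Nr1i3 overlap those of Tomm40l on the opposite strand. The sources used here do not state the strand setting of the counting, so reads of these genes may not be told apart. The same holds for Thra with Nr1d1, Esrra with Trmt112, Nr2f6 with Ocel1, Nr2c2 with Mrps25 and Nr2f2 with B130024G19Rik. The exons of Nr1h3 overlap those of Gm13783 on the same strand, where no strand setting would tell the reads apart.

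Of the PPARs, Ppard (ENSMUSG00000002250) was at 177, 225, 243, 230.1 and 275 CPM in flox 1 to 5 and at 216, 244, 173, 162 and 164 in CKO 1 to 5. CKO 3, CKO 4 and CKO 5 were the lowest of the 10 libraries, and CKO 1 and CKO 2 lay within the flox range. With all libraries its log2 fold change was -0.26 (SE 0.16, edgeR adjusted p = 0.454), and -0.36 without flox 1 and flox 4 (edgeR unadjusted p = 0.046, adjusted p = 0.772). Pparg, a PPAR known for its high level in colonocytes, averaged 65.3 ± 9.08 CPM in flox and 56.2 ± 18.6 in CKO, from 30.6 in CKO 5 to 79.9 in CKO 1. Ppara ranged from 3.32 to 7.35 CPM in flox and from 2.44 (CKO 5) to 11.4 (CKO 1) in CKO, a spread within 1 group that was wider than the difference of the means. Fitted log2 fold changes of Ppara were 0.42 with all libraries and 0.15 without flox 1 and flox 4.

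The RXRs are the common partners of these sensors. Rxra (ENSMUSG00000015846) was at 172, 115, 122, 152 and 119 CPM in flox 1 to 5 and at 127, 132, 94.6, 131 and 76.6 in CKO 1 to 5. Flox 1 and flox 4 were the 2 highest libraries, and they also had the most mitochondrial counts. With all libraries the log2 fold change was -0.28 (SE 0.18, edgeR adjusted p = 0.473), without those 2 it was -0.07, and without CKO 5 it was -0.16. Rxrb was at 66.4 ± 11.6 and 62.3 ± 6.89 CPM, with an interval of -0.40 to 0.22 around -0.091, and at -0.0054 without flox 1 and flox 4.

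The thyroid hormone receptors differed in level between paralogs. Thra was at 39.3 ± 2.76 CPM in flox and 38.9 ± 4.97 in CKO, with an interval of -0.27 to 0.23 around -0.016. Without flox 1 and flox 4 the log2 fold change of Thra was -0.061. Thrb (ENSMUSG00000021779) was at 6.80, 12.0, 11.0, 10.4 and 10.8 CPM in flox 1 to 5 and at 15.2, 11.9, 14.9, 11.8 and 12.2 in CKO 1 to 5. Flox 1 was the lowest library, and flox 2 lay above CKO 2 and CKO 4. The log2 fold change of Thrb was 0.37 (SE 0.17, ratio interval 1.01 to 1.66, edgeR unadjusted p = 0.046, adjusted p = 0.381), and 0.23 (edgeR unadjusted p = 0.129) without flox 1 and flox 4.

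Among estrogen-related receptors, Esrra (ENSMUSG00000024955) was at 216, 201, 160.4, 149.6 and 169.7 CPM in flox 1 to 5 and at 227, 230.0, 189, 201 and 190.0 in CKO 1 to 5. The 2 highest libraries were CKO 1 and CKO 2, and flox 1 and flox 2 lay among the CKO values. Between the groups its log2 fold change was 0.21 (SE 0.14, edgeR adjusted p = 0.469). Esrrg (ENSMUSG00000026610), a paralog that is low in crypts, had the largest fitted change of the set.

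Esrrg was at 2.14, 2.13, 1.78, 4.23 and 2.21 CPM in flox 1 to 5 and at 3.46, 3.22, 5.71, 1.81 and 6.47 in CKO 1 to 5. CKO 3 and CKO 5 were the highest libraries and flox 4 stood apart from the other flox libraries, while CKO 4 was nearly the lowest. The log2 fold change was 0.74 (SE 0.36, ratio interval 0.976 to 2.88, edgeR adjusted p = 0.390), 1.03 without flox 1 and flox 4 (edgeR unadjusted p = 0.019, adjusted p = 0.721), and 0.53 without CKO 5.

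Nr2f2 and Nr6a1, both of low level, were also among the 10 smallest p-values. Nr2f2 (COUP-TFII, ENSMUSG00000030551), a receptor known from mesenchyme and vessels, was at 5.85, 11.4, 7.17, 6.88 and 9.08 CPM in flox 1 to 5 and at 10.2, 11.7, 11.3, 7.35 and 12.8 in CKO 1 to 5. CKO 5 was highest, and flox 2 lay among the CKO values. Its log2 fold change was 0.40 (SE 0.21, edgeR adjusted p = 0.407), and 0.22 without flox 1 and flox 4.

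The 11 tested fibroblast and muscle markers were all higher in CKO by fitted value, 6 of them at an unadjusted p under 0.05 (5.05% of all genes were higher at that level) and 0 past the adjusted threshold in edgeR, with a median log2 fold change of 0.94. Their summed level was 30.3 to 101 CPM in flox and 71.9, 81.5, 174, 178 and 259 CPM in CKO 1 to 5. CKO 5 was highest both for these markers and for Nr2f2, but CKO 4, next highest for the markers, had the lowest Nr2f2 of the CKO group (7.35 CPM). Their part in the Nr2f2 value was not tested.

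Within the epithelium, all 8 goblet cell markers were lower in CKO by fitted value, 5 of them at an unadjusted p under 0.05 (7.91% of all genes were lower at that level), with a median log2 fold change of -0.72. Their summed level was 23716 to 41447 CPM in flox and 13262 to 24924 CPM in CKO, and flox 1 and flox 4 were the lowest flox libraries. The part of these markers in the receptor values was not tested.

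Nr6a1 (ENSMUSG00000063972), an orphan receptor known from germ cells and embryos, was at 9.02, 7.81, 7.22, 5.67 and 9.13 CPM in flox 1 to 5 and at 6.30, 6.30, 6.26, 7.79 and 6.65 in CKO 1 to 5. The groups overlapped through flox 4 and CKO 4. For Nr6a1 the log2 fold change was -0.22 (SE 0.16, edgeR adjusted p = 0.502).

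The remaining tested receptors were close to even or imprecise. The glucocorticoid receptor Nr3c1 was at 39.2 ± 10.3 CPM in flox and 44.8 ± 12.0 in CKO. The immediate early receptors Nr4a1 and Nr4a2 were at 8.84 ± 2.51 and 5.53 ± 1.80 CPM in flox, with log2 fold changes of -0.25 and -0.21, the latter -0.40 without flox 1 and flox 4. The testicular receptors Nr2c1 and Nr2c2 had 0.21 and 0.53, the latter with an interval of -0.32 to 1.38. They were at 0.049 and 0.19 without flox 1 and flox 4, and Nr3c1 moved from 0.19 to 0.0025 (0.30 without CKO 5). Nr2f6 had -0.14, or 0.013 without those libraries. Esr1, at 1.49 ± 0.460 CPM in flox, had 0.06 with an interval of -0.59 to 0.72.

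**Figure D3:**
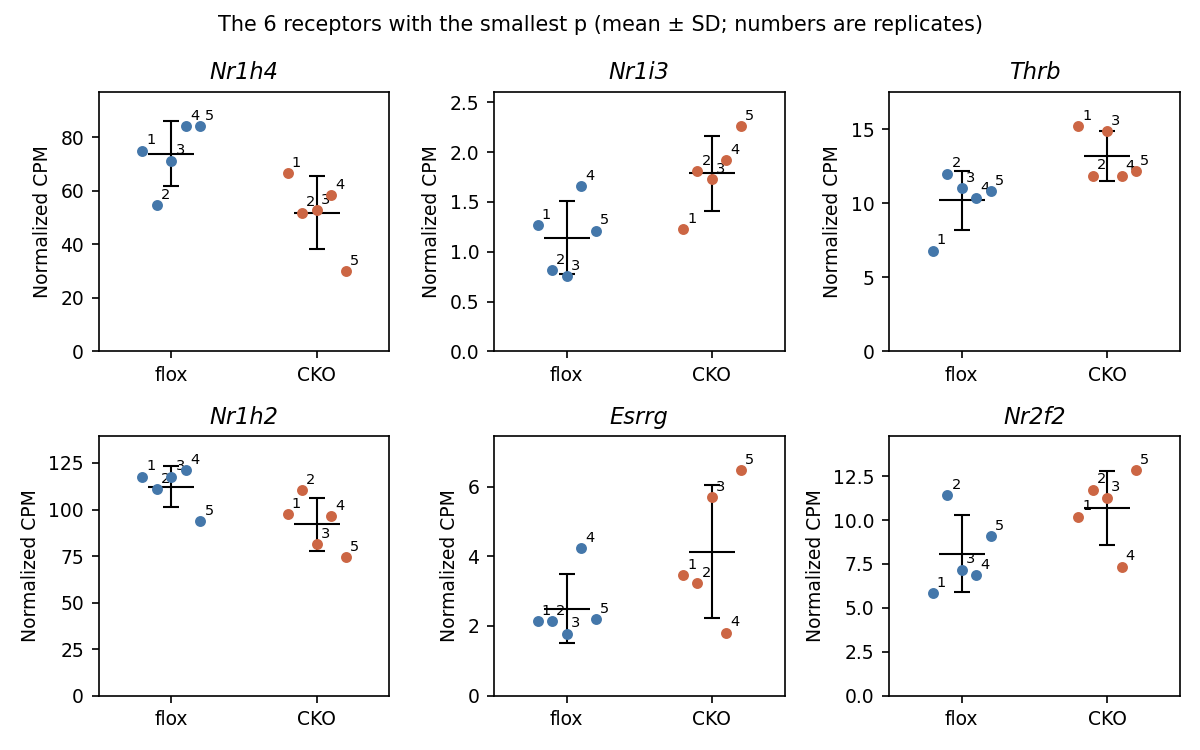
Normalized CPM of the 6 receptors with the smallest p, one numbered point per library, flox and CKO side by side, with mean ± SD. The groups overlap in every panel, from Nr1h4, with CKO 5 lowest at 30.0 CPM, to Esrrg, with CKO 5 highest at 6.47 CPM.

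Library CKO 5 was often at an extreme. It held the lowest CPM of the 10 libraries for 9 of 27 receptors (33.3%), against 14.4% of all tested genes: Hnf4a, Nr1h2, Nr1h4, Nr5a2, Ppara, Pparg, Rxra, Thra and Vdr. It held the highest value for Esrrg, Nr1i3 and Nr2f2 (11.1%), against 13.5% of all tested genes. Flox 1 held the lowest value for 6 receptors (22.2%) and the highest for 4 (14.8%), against 26.0% and 25.2% of all tested genes. CKO 1 held the highest value for 8 receptors (29.6%), against 10.4% of all tested genes: Hnf4g, Nr2c1, Nr2c2, Nr3c1, Ppara, Pparg, Thra and Thrb. Ppara and Pparg thus had their lowest and their highest library within the CKO group, CKO 5 and CKO 1.

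Pairs of paralogs or partners were compared by the log2 ratio of their FPKM within each library. This cancels the library's total, but not a change of FPKM per count that differs between genes. Hnf4a exceeded Hnf4g by 5.76 ± 0.59 log2 units in flox and 5.64 ± 0.47 in CKO (SD, n = 5 each). Nr1h2 exceeded Nr1h3 by 2.38 ± 0.45 and 2.03 ± 0.26, Thra exceeded Thrb by 3.10 ± 0.35 and 2.82 ± 0.15, and Ppard exceeded Pparg by 0.97 ± 0.13 and 1.06 ± 0.46 log2 units. In both groups, then, the same paralog was the more abundant one.

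With all libraries, the ratio of Ppard over Ppara differed most, 4.74 ± 0.57 in flox and 4.02 ± 0.96 in CKO. Ppara had 260 counts and 12.0 FPKM in CKO 1, but 298 counts and 8.62 FPKM in CKO 2. The totals of those libraries were 20074023 and 23642415. The part of such changes of FPKM per count in this ratio was not tested. Rxra over Rxrb was -0.18 ± 0.25 and -0.42 ± 0.24. None of the 6 differences passed an exact two-sided permutation test (unadjusted p from 0.127 to 0.754, Benjamini-Hochberg adjusted p from 0.286 to 0.754 over the 6). In the 8 other libraries, without flox 1 and flox 4, the largest difference was that of Nr1h2 over Nr1h3, which moved from -0.36 to -0.65 (exact permutation p = 0.0179, adjusted p = 0.107), and Ppard over Ppara was at -0.57. The smallest p that this exact test can give is 0.00794 for 5 samples against 5, and 0.0179 without flox 1 and flox 4. Nr1h2 over Nr1h3 was at that limit, with 2.97, 2.42 and 2.65 log2 units in flox 2, flox 3 and flox 5 and at most 2.33 in CKO.

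Coregulators bind the receptors and carry the chromatin enzymes. Of 18 tested coregulators, 15 had a fitted change above 0 and 3 below, with a median log2 fold change of 0.14. By edgeR 0 passed the adjusted threshold, and at an unadjusted p under 0.05 there were 4 higher and 2 lower (5.05% and 7.91% of all genes). Without flox 1 and flox 4 there were 0 at that level (6.41% of all genes), 12 above 0 and 6 below, and the median was 0.05. Tbl1xr1, a corepressor exchange factor, was at 34.0 ± 4.09 CPM in flox and 42.2 ± 3.02 in CKO (log2 fold change 0.31, edgeR adjusted p = 0.370). The PGC-1 coactivators pointed opposite ways: Ppargc1a was at 13.0 ± 3.24 and 18.7 ± 4.43 CPM (0.52, adjusted p = 0.374), and Ppargc1b at 32.1 ± 5.54 and 24.7 ± 4.48 CPM (-0.38, adjusted p = 0.376, and -0.19 without flox 1 and flox 4). The groups of the deacetylase gene Hdac3 did not overlap, at 74.0 ± 4.21 CPM in flox and 64.0 ± 3.01 in CKO (-0.21, edgeR adjusted p = 0.381). This held for 1 of the 18 tested coregulators, and for 2.18% of all tested genes.

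Lists of target genes were read for each receptor class, and by edgeR 0 genes of any of the 11 lists passed the adjusted threshold. Cyp3a11, Cyp3a25, Cyp2b10 and Abcc2 of the PXR and CAR list and Cyp24a1 of the VDR list had too few counts to test. The same held for Apoa1, Apoa4 and Apoc3 of the HNF4 list, Abcg4 of the LXR list and Thrsp of the thyroid hormone list. Cyp11a1, Cyp11b1, Hsd11b1 and Hsd3b1 of the NR5A2 and steroid genes were also too low to test. In the LXR list, 9 of 11 tested genes were above 0 and 2 below, with a median log2 fold change of 0.34 and 3 genes higher at an unadjusted p under 0.05, where 5.05% of all genes were. Abcg5, which with Abcg8 forms the sterol exporter, was at 4.43, 2.45, 3.30, 2.12 and 2.47 CPM in flox 1 to 5 and at 5.38, 5.87, 15.8, 4.88 and 27.4 in CKO 1 to 5. Every CKO library lay above every flox library, with CKO 3 and CKO 5 far above the rest. Groups did not overlap for 1 of the 11 tested genes of this list, and for 2.18% of all tested genes.

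The log2 fold change of Abcg5 was 2.02 (SE 0.49, edgeR unadjusted p = 0.00153, adjusted p = 0.283), and DESeq2 gave an adjusted p of 0.00518, or 0.168 without flox 1 and flox 4. Without CKO 5 its log2 fold change was 1.45. Abcg8 had the same order of libraries at its top, CKO 5 (11.5 CPM) and CKO 3 (8.03 CPM), and a log2 fold change of 1.43 (edgeR adjusted p = 0.354). Mylip, the ligase that removes the LDL receptor, was at 9.54 ± 3.88 and 16.3 ± 4.33 CPM (0.77, edgeR adjusted p = 0.372). When flox 1 and flox 4 were left out, Mylip was at 0.44 and the median of the LXR list at 0.05.

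All 4 tested genes of the FXR list were below 0 by fitted value, with a median of -0.66, and none had an unadjusted p under 0.05. The list does not record whether FXR raises or lowers each gene, so a shared sign is not a reading of FXR activity. Without flox 1 and flox 4, 1 was above 0 and 3 below with a median of -0.30, and without CKO 5 the median was -0.38. The classical targets Fgf15 and Nr0b2 had too few counts to test. Slc51a, a subunit of the basolateral bile acid exporter, was at 88.2, 43.4, 91.9, 83.4 and 80.2 CPM in flox 1 to 5 and at 65.8, 60.0, 45.3, 63.3 and 3.04 in CKO 1 to 5. Flox 2 was the lowest flox library for Slc51a as it was for Nr1h4, and CKO 5 was far below all others. Its log2 fold change was -0.71 (SE 0.55, edgeR adjusted p = 0.531), and -0.40 without CKO 5.

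The bile acid uptake transporter Slc10a2 was at 12.1 ± 3.83 CPM in flox and 7.70 ± 5.33 in CKO, with CKO 5 lowest at 0.955 CPM (-0.66, edgeR adjusted p = 0.524, and -0.37 without CKO 5). Fabp6, the bile acid binding protein, had a log2 fold change of -0.66 with all libraries and 0.45 without flox 1 and flox 4.

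The VDR list was divided, with 3 of 7 tested genes above 0 and 4 below and a median of -0.09 (-0.21 without flox 1 and flox 4). S100g, the calcium-binding protein calbindin-D9k, was at 88.8, 21.9, 131, 72.5 and 77.8 CPM in flox 1 to 5 and at 25.1, 43.0, 13.9, 16.5 and 21.6 in CKO 1 to 5. All flox libraries but flox 2 lay above every CKO library. Its fitted log2 fold change was -1.70 (SE 0.42, edgeR adjusted p = 0.283), and DESeq2 gave an adjusted p of 0.00824, or 0.341 without flox 1 and flox 4. Slc37a2, a sugar phosphate transporter, lay on the other side, at 27.4 ± 11.2 and 70.7 ± 43.3 CPM (1.37, edgeR adjusted p = 0.365). Cldn2, a pore-forming claudin, had 0.47 (edgeR unadjusted p = 0.127), and 0.13 without flox 1 and flox 4.

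In the PXR and CAR list, 7 of 12 tested genes were above 0 and 5 below, with 4 higher at an unadjusted p under 0.05 (5.05% of all genes). They were the carboxylesterases Ces2c (264 ± 79.0 CPM in flox, 419 ± 63.4 in CKO, log2 fold change 0.67) and Ces2a (146 ± 46.6 and 210.0 ± 51.7, 0.52), the drug exporter Abcb1a (143 ± 52.4 and 237 ± 57.9, 0.73) and the cytochrome Cyp3a13 (55.7 ± 12.6 and 79.2 ± 19.7, 0.51). Their edgeR adjusted p ran from 0.365 to 0.380. Leaving out flox 1 and flox 4, Ces2c was at 0.44, Abcb1a at 0.42 and Cyp3a13 at 0.43, and the list's median moved from 0.16 to 0.03. Ces2a was at 0.90 without them, where DESeq2 gave an adjusted p of 0.00943, against 0.298 with all libraries. The carboxylesterases are a tandem family of similar sequence, so reads may be split between them.

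The PPAR list (11 above 0 and 8 below of 19, median 0.12) and the list of estrogen-related receptor targets (8 and 9 of 17, median -0.0077) were near even. With flox 1 and flox 4 left out the PPAR list had 7 above 0 and 12 below with a median of -0.03, and the other list 10 and 7 with 0.04. Creb3l3, a partner of PPARα in lipid metabolism, was at 5.20 ± 1.22 and 9.01 ± 5.94 CPM (0.80, edgeR adjusted p = 0.396), while the oxidation enzymes Acaa1a and Acadvl had -0.43 and -0.33, or -0.063 and -0.14 without those libraries. Ogdh, which encodes a subunit of an enzyme of the citric acid cycle, was at 527 ± 69.5 and 416 ± 57.7 CPM (-0.34, edgeR adjusted p = 0.381), and Idh3a had 0.23. They were at -0.21 and 0.13 without flox 1 and flox 4. The HNF4 list had 8 genes above 0 and 7 below of 15, with a median of 0.01 (0.06 without flox 1 and flox 4 and 0.12 without CKO 5).

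Of the HNF4 list, Apob, the lipoprotein scaffold, was higher in every CKO library than in any flox library, at 31.1 ± 10.6 and 57.6 ± 25.2 CPM (0.88, edgeR adjusted p = 0.365). Groups did not overlap for 1 of the 15 tested genes of this list, and for 2.18% of all tested genes. The brush border gene Cdhr5 was at 1282 ± 305 and 889 ± 262 CPM (-0.53, edgeR adjusted p = 0.386). Apob was at 0.57 and Cdhr5 at -0.28 without flox 1 and flox 4.

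Among steroid genes, Hsd11b2, which inactivates glucocorticoid in colon epithelium and so keeps it from the mineralocorticoid receptor, was at 131, 210.0, 160.3, 114 and 187 CPM in flox 1 to 5 and at 228, 239.7, 344, 247 and 327 in CKO 1 to 5. The lowest CKO library, CKO 1, exceeded the highest flox library, flox 2. Hsd11b2 was 1 of 4 tested genes of its list, and the only 1, whose groups did not overlap, as did those of 2.18% of all tested genes. Its log2 fold change was 0.79 (SE 0.19, edgeR unadjusted p = 0.00169, adjusted p = 0.283), 0.59 without flox 1 and flox 4, and DESeq2 gave an adjusted p of 0.022, or 0.183 without those libraries. The list it belongs to, the NR5A2 and steroid genes, had 3 of 4 tested genes above 0, among them Ccnd1 (0.24) and Ccne1 (0.38), which were at 0.11 and 0.13 without those libraries.

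The glucocorticoid target list had 9 of 12 tested genes above 0 and 3 below, with a median of 0.16. Sgk1, a kinase that raises sodium uptake, was at 66.6 ± 12.7 and 111 ± 33.2 CPM (0.74, SE 0.21, edgeR adjusted p = 0.332), and Zbtb16 at 0.473 ± 0.214 and 1.23 ± 0.869 CPM (1.39, edgeR adjusted p = 0.385). Per1 had 0.41. The receptor's own transcript, Nr3c1, had an interval of -0.28 to 0.66.

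The thyroid hormone list had 5 of 6 tested genes above 0. The exception was Me1, malic enzyme, at 63.5, 57.1, 67.9, 60.6 and 105 CPM in flox 1 to 5 and at 39.4, 57.3, 17.1, 27.8 and 7.82 in CKO 1 to 5. CKO 5 was again the lowest library and only CKO 2 reached the flox range. Its edgeR adjusted p was 0.365, and the hormone transporter Slc16a10 (0.40) and Klf9 (0.25) lay on the other side of 0. They were at 0.27 and 0.14 without flox 1 and flox 4, and 4 of the 6 genes were above 0.

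**Figure D4:**
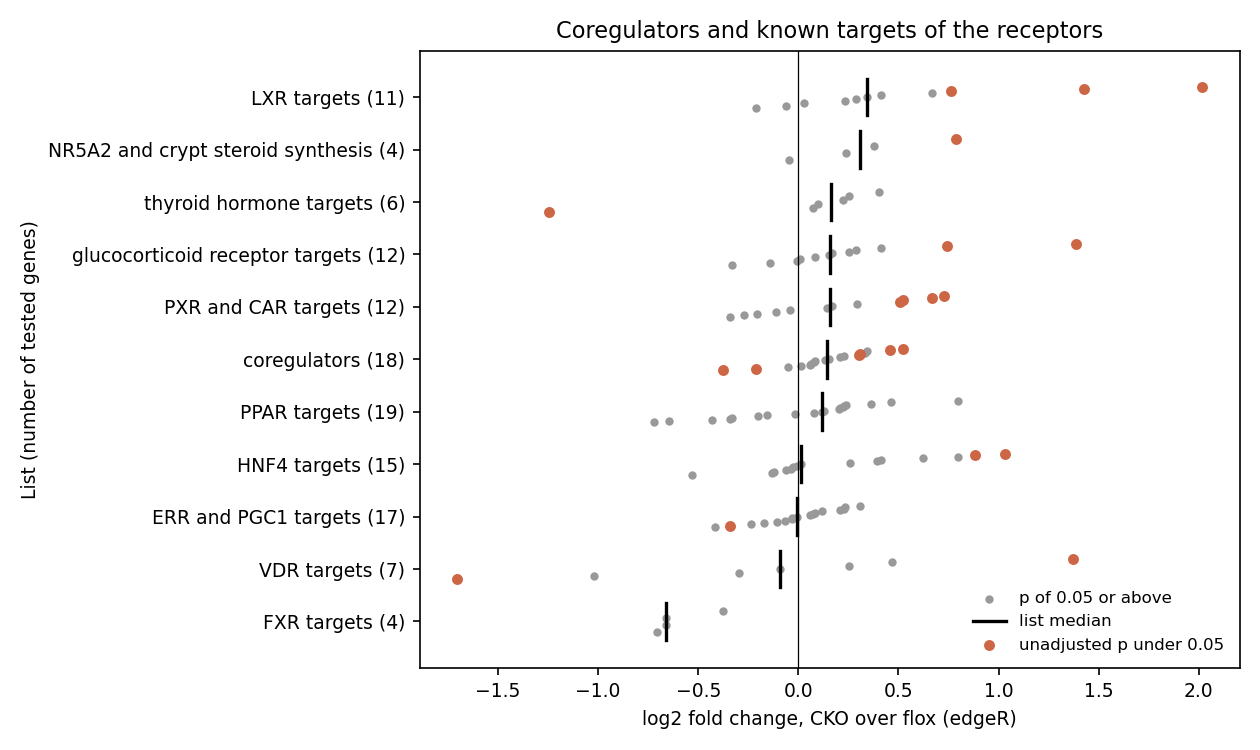
Log2 fold change, CKO over flox, of each tested gene of the target and coregulator lists, one row per list, coloured by whether the unadjusted p was under 0.05, with the list median as a line. The FXR genes all lie below 0 and most LXR and coregulator genes above it, while the HNF4 and estrogen-related receptor lists are centred near 0.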

How the data were processed

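Total RNA of mouse colon crypts was sequenced after mRNA enrichment with a TruSeq RNA kit, per the labels' protocols. The submitters' processing notes name fastp and HISAT2, without versions. The sources used here do not state the counting tool, its strand setting, the genome build or the annotation. The authors deposited 1 table of raw counts per gene and 1 table of FPKM, with the same libraries. Gene identifiers were matched to symbols with GENCODE M21 (26095 of 33632).

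From the counts, edgeR 4.0.16 in R 4.3.3 was run on all 10 libraries (filterByExpr, TMM scaling, robust quasi-likelihood fit, CKO against flox, Benjamini-Hochberg adjustment over 14963 genes, threshold 0.05). The script was tested on simulated data. CPM values are the deposited counts scaled to the TMM-adjusted library size. Levels of different genes were compared by the authors' FPKM only, and family ratios by log2 of FPKM with exact permutation tests. Alternatives used DESeq2 1.42.0, limma 3.58.1 and left-out libraries. No 2 libraries agreed within counting noise.

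The receptors and all lists (11 pathway lists with 138 genes, and cell type markers) were chosen with earlier results of these data known. Values by library are given for the 10 tested receptors with the smallest p, the 5 of highest mean FPKM and any with groups that do not overlap, and the 3 genes of smallest p are named in each pathway list, except 1 gene that is not reported here. Ces2a, Hdac3, the list genes with too few counts and the genes that overlap a receptor were named after the values were seen.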

Additional observations from a re-analysis of the deposited data

Results flagged for a closer look

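Of 66 groups of 5 receptor values checked, 4 had a library whose gap to its nearest neighbour exceeded the limit of 0.71 of the group's range, and chance alone flags about 1 in 20 groups. Nr2c1 was at 6.42 CPM in CKO 4, against 9.41 to 10.2 in the other CKO libraries. Nr6a1 was at 7.79 CPM in CKO 4, against 6.26 to 6.65. Nr1i2 was at 70.0 CPM in CKO 1, against 63.5 to 65.3. Esrrg was at 4.23 CPM in flox 4, one of the libraries with a high mitochondrial share, against 1.78 to 2.21 in the other flox libraries.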

How the results depend on the processing

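No receptor passed the adjusted threshold under any of the 26 alternatives tried, and none of the family ratios did. The count of all genes past it, 0 in the edgeR fit, was 165 by DESeq2, 69 by DESeq2 without flox 1 and flox 4, 44 by limma voom with quality weights, 3 with no filter on low counts, 1 with the mitochondrial share as a covariate, and 0 to 2 with each library left out in turn (2 without flox 2). Pathway genes past it numbered 3 by DESeq2 and 1 by DESeq2 without flox 1 and flox 4. Receptors at an unadjusted p under 0.05 numbered 9 with quality weights (23.8% of all genes), 6 with log2(FPKM + 1) (16%) and 6 with log2(FPKM + 0.1) (15.6%). With each library left out they numbered 1 to 4 (7.34% to 20.8% of all genes). There was 1 without flox 5 (3.7% of receptors, 18.7% of all genes) and 1 without CKO 3 (3.7% and 7.34%). The cause of these differences was not tested.

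The labels do not say whether samples with the same replicate number were paired. The correlations of same-numbered deviations were -0.30, 0.28, 0.09, 0.40 and -0.06, and so few values cannot settle it. Flox 2 and flox 4 correlated best with the CKO library of their own number, while flox 1, flox 3 and flox 5 did so with CKO 4, CKO 5 and CKO 2. With the number as a replicate block, 0 genes passed the adjusted threshold, and 1986 genes and 3 receptors had an unadjusted p under 0.05.

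Of 702 receptor values under alternatives, 79 had the sign turned, from 17 receptors, and 10 receptors kept their sign throughout. The 3 settings without TMM or a like scaling turned 13 receptors each: with library totals only the median of all genes was 0.36, and on log2(FPKM + 1) and log2(FPKM + 0.1) it was 0.30 and 0.41. The values that turned from below to above 0, in the order of these settings and not corrected for those medians, were 0.27, 0.31 and 0.31 for Nr2f6, 0.12, 0.019 and 0.078 for Nr6a1, 0.088, 0.19 and 0.20 for Nr1h2, 0.40, 0.52 and 0.55 for Nr1h3, 0.35, 0.38 and 0.39 for Nr1i2, 0.36, 0.41 and 0.41 for Vdr, 0.33, 0.41 and 0.44 for Thra, 0.070, 0.22 and 0.22 for Ppard, 0.10, 0.12 and 0.13 for Pparg, 0.13, 0.13 and 0.14 for Rxra, 0.29, 0.36 and 0.37 for Rxrb, 0.087, 0.28 and 0.36 for Nr4a1, and 0.069, 0.080 and 0.18 for Nr4a2. Without flox 1 and flox 4, edgeR gave 0.013 for Nr2f6, 0.31 for Nr1h3, 0.036 for Nr1i2, 0.0064 for Vdr and -0.0072 for Esr1, and the Hnf4a over Hnf4g ratio differed by 0.19. DESeq2 without them gave 0.0079 for Nr2f6, 0.30 for Nr1h3, 0.029 for Nr1i2, 0.0015 for Vdr, -0.0018 for Nr3c1 and -0.012 for Esr1. With the mitochondrial covariate, Nr2c1 was at -0.015, Nr1h3 at 0.31, Nr1i2 at 0.031, Vdr at 0.0022 and Esr1 at -0.099. Nr1h3 was at 0.023 by voom and 0.037 with quality weights, where Vdr was at 0.012 and Thra at 0.026. Upper-quartile scaling gave 0.027 for Vdr and 0.015 for Thra, and no filter gave 0.021 and 0.0053. With each library left out in turn, signs turned within -0.031 to 0.24 for Esr1, -0.23 to 0.045 for Nr1h3, -0.0060 to 0.10 for Nr5a2, -0.080 to 0.030 for Thra, -0.061 to 0.084 for Vdr, -0.27 to 0.12 for Hnf4a over Hnf4g and -0.074 to 0.21 for Ppard over Pparg. Depth limits the rarest tested receptors, Nr1i3, Esrrg and Esr1.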
